A study of Mus musculus with 7 samples.

Results

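The genes described here are 10 genes of death receptor signalling, necroptosis and the inhibitor of apoptosis (IAP) family: *Tnfrsf10b*, *Fadd*, *Tradd*, *Cflar*, *Ripk1*, *Ripk3*, *Mlkl*, *Xiap*, *Birc2* and *Apaf1*. They were chosen by name with earlier results of these data known, as were the gene lists used below. All 10 were among the 17959 genes kept by the expression filter, out of 55450 genes counted. Expression was measured by bulk RNA sequencing of dorsal skin from male C57BL/6 mice aged 24 months, with 1 library per mouse. The ABT-263 group (mice 476, 477 and 478) received topical 5 µM ABT-263 (navitoclax), which blocks the survival proteins Bcl-2 and Bcl-xL and is used as a senolytic, a drug meant to remove senescent cells. The DMSO group (mice 480, 481, 482 and 483) received the vehicle alone. In all mice of both groups the back was clipped, depilated with a hair removal lotion and wiped with ethanol, and the treated skin stayed under a semi-occlusive film dressing for 5 days. The labels name no genetic modification and no batch, and no untreated skin was analysed here, so each value below compares drug with vehicle.

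As background, death receptors of the TNF receptor superfamily assemble adaptors on their cytoplasmic death domains when a ligand binds. From there the signal can go to NF-κB through ubiquitin ligases that include the IAP proteins, to apoptosis through caspase-8, or, where caspase-8 is not active, to necroptosis through the kinases Ripk1 and Ripk3 and the membrane-disrupting pseudokinase Mlkl. Apaf1 belongs to the mitochondrial route, the route that Bcl-2 and Bcl-xL restrain, and Xiap holds back the caspases of either route. In skin, keratinocytes that lack caspase-8, Fadd or Ripk1 function are known for inflammation that depends on Ripk3 and Mlkl.

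After 5 days of ABT-263, 3 of the 10 genes were higher than after DMSO at an adjusted p under 0.05 by edgeR's quasi-likelihood test, and they were *Ripk1*, *Ripk3* and *Mlkl*, the kinases and the effector of necroptosis. *Ripk3* had the largest difference of the 10 (3.72-fold), followed by *Mlkl* (2.42-fold) and *Ripk1* (1.82-fold). The other 7 genes did not pass the test. No member was lower, either in this test, at an unadjusted p under 0.05, or by the DESeq2 Wald test (0 of 10 in each case). Among all genes tested, 12.4% were called higher and 11.7% lower, so that 3 of 10 stands beside a background of 12.4%. Of the 10 genes, 9 had a positive log2 fold change, and their median was 0.54, against 0.0022 for all genes. The DESeq2 Wald test called 5 members, adding *Tnfrsf10b* and *Apaf1*, with 14.0% of all genes called higher. Several other processing choices, given at the end, called only 2, *Ripk1* and *Ripk3*, and no share of all genes is given for those choices. In 6 of the 10 genes (*Tnfrsf10b*, *Ripk1*, *Ripk3*, *Mlkl*, *Xiap* and *Apaf1*) every ABT-263-treated mouse lay above every DMSO-treated mouse, which held for 18.7% of all genes tested. None of the 10 had every ABT-263-treated mouse below every DMSO-treated mouse, as 18.4% of all genes tested did, and both patterns together made up 37.1% of them.

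The libraries differed in ways that bear on these values. Total counts were 20344364 to 26824123 per DMSO-treated mouse and 27325963 to 43562330 per ABT-263-treated mouse, with no overlap in size between the groups. Mouse 476 of the ABT-263 group was the highest of all 7 mice in 8 of the 10 members (all but *Tnfrsf10b* and *Xiap*), whereas it was the highest in 21.0% of all genes tested. Mouse 481 of the DMSO group was the lowest DMSO-treated mouse in 7 of the 10 members, against 27.6% of all genes. Left out of the fit, mouse 476 took 2 of the 3 calls with it: *Ripk3* remained called, the median log2 fold change of the members was 0.44, and 6.01% of all genes were called higher. *Ripk3* was also the single member called without mouse 481 (7.95% of all genes called higher), 483 (5.58%) or 478 (5.22%), and 2 members were called without 482 (4.80%) and 3 without 480 (11.6%) or 477 (12.3%). Keratin genes that define epidermis (*Krt5*, *Krt14*) were abundant in all mice, as the tissue label states, while markers of other cell types differed between the groups and are given with the necroptosis genes below.

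**Figure D1:**
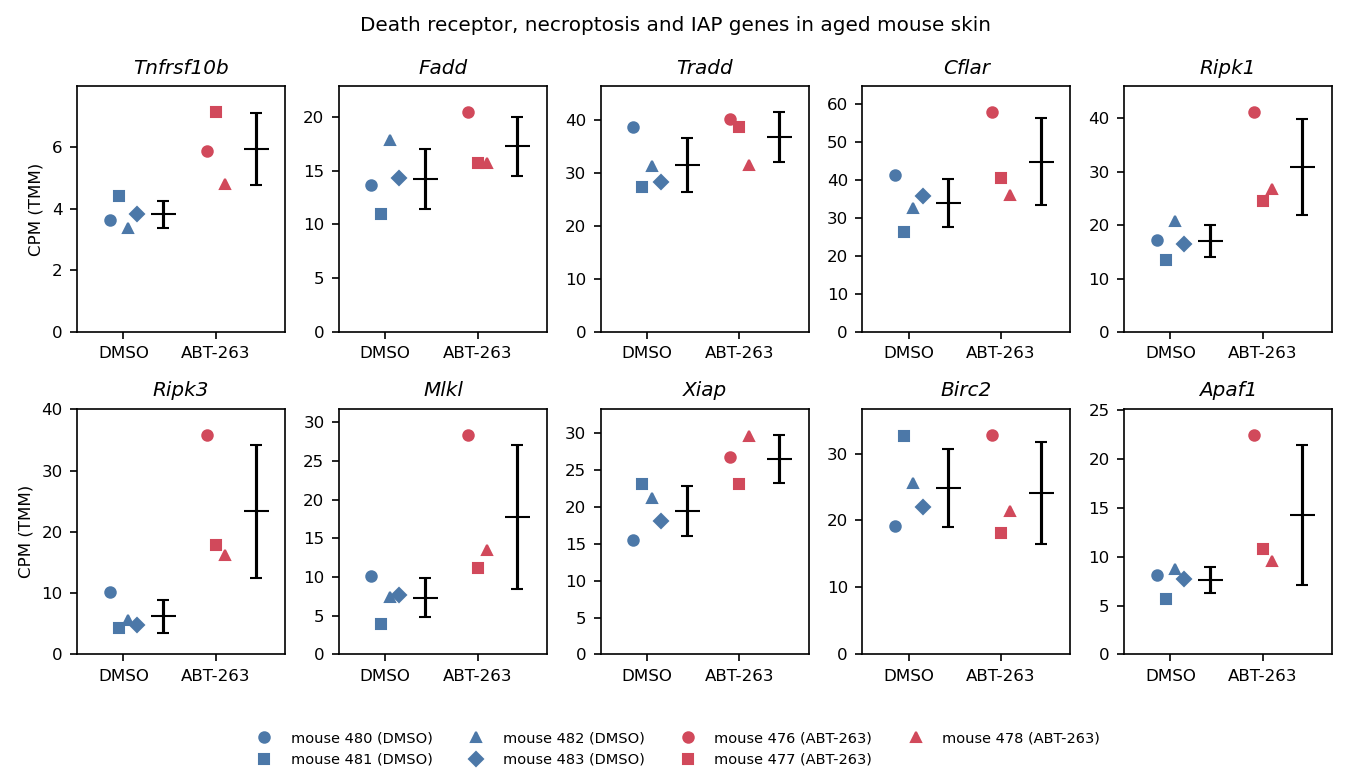
Each panel plots 1 gene in CPM (counts scaled by TMM library size, linear axis from 0), with 1 symbol per mouse, DMSO in blue and ABT-263 in red, and the group mean with its SD in black. Every ABT-263-treated mouse lies above every DMSO-treated mouse for *Tnfrsf10b*, *Ripk1*, *Ripk3*, *Mlkl*, *Xiap* and *Apaf1*, by a very small margin for *Xiap*, and mouse 476 (red circle) is the highest mouse in 8 panels.

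*Tnfrsf10b* (chromosome 14, 69767472 to 69784411, forward strand, GRCm38) encodes the mouse receptor for TRAIL that carries a death domain. In CPM, which are counts scaled to TMM-normalized library sizes, it was at 3.64, 4.42, 3.39 and 3.82 in DMSO-treated mice 480, 481, 482 and 483, and at 5.86, 7.13 and 4.81 in ABT-263-treated mice 476, 477 and 478. The groups did not overlap, and the highest value came from mouse 477 rather than mouse 476. The difference was 1.55-fold, a log2 fold change of 0.63 (SE 0.22), and it did not pass the threshold (edgeR adjusted p = 0.0643). Over the 7 fits that left out 1 mouse, it stayed between 0.51 and 0.77. The DESeq2 Wald test placed the gene past the threshold (adjusted p = 0.0352), within a range of 0.0352 to 0.168 over 14 alternatives.

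The adaptors *Fadd* and *Tradd* differed little. *Fadd* (chromosome 7, 144577318 to 144582463, reverse strand) encodes the adaptor that recruits caspase-8 to death receptors, and it was at 13.7, 11.0, 17.8 and 14.3 CPM after DMSO and at 20.4, 15.7 and 15.7 CPM after ABT-263. *Tradd* (chromosome 8, 105258286 to 105264609, reverse strand) encodes the adaptor of TNF receptor 1, and it was at 38.7, 27.4, 31.4 and 28.4 CPM after DMSO and at 40.3, 38.6 and 31.5 CPM after ABT-263. In both genes the groups overlapped. On the log2 scale the difference was 0.28 (SE 0.19, edgeR adjusted p = 0.315) for *Fadd* and 0.23 (SE 0.16, edgeR adjusted p = 0.325) for *Tradd*. Both differences were within the spread between mice, which does not show that the adaptors stayed level. The exons of *Fadd* share 6.12% of their bases with the antisense gene *Faddos*, which same-strand counting keeps apart.

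*Cflar* (chromosome 1, 58711508 to 58758884, forward strand) encodes cFLIP, a caspase-8 homolog without catalytic activity that regulates caspase-8 at the receptor. It was at 41.4, 26.2, 32.7 and 35.7 CPM after DMSO and at 57.8, 40.5 and 36.2 CPM after ABT-263. The groups overlapped, since DMSO-treated mouse 480 lay above ABT-263-treated mice 477 and 478, and the log2 fold change of 0.40 (SE 0.21) did not pass (edgeR adjusted p = 0.188). Without mouse 476 it was 0.18.

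*Ripk1* (chromosome 13, 34002363 to 34037147, forward strand) encodes the kinase and scaffold that sits at TNF receptor 1 and can engage either caspase-8 or Ripk3. It was at 17.3, 13.4, 20.7 and 16.4 CPM in DMSO-treated mice 480 to 483 and at 41.2, 24.6 and 26.8 CPM in ABT-263-treated mice 476 to 478. The groups did not overlap, and mouse 476 was 1.53 times the next ABT-263-treated mouse. This gave a log2 fold change of 0.86 (SE 0.22, edgeR adjusted p = 0.0275). The exact permutation test of log2 CPM gave p = 0.0286, the smallest that 4 mice against 3 allow. The call was lost without mouse 481 (adjusted p = 0.0600), 483 (0.0695), 476 (0.0737) or 478 (0.0559), with log2 fold changes of 0.61 to 1.03 over the 7 fits and adjusted p of 0.00701 to 0.0737 over the 14 alternatives. In the annotation 6.12% of the exon bases of *Ripk1* are shared with the processed pseudogene *Gm17084* on the same strand, where reads cannot be assigned to either gene with certainty.

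*Ripk3* (chromosome 14, 55784995 to 55788865, reverse strand) encodes the kinase that phosphorylates Mlkl. Its expression was 10.2, 4.30, 5.70 and 4.81 CPM after DMSO and 35.9, 17.9 and 16.2 CPM after ABT-263. The lowest ABT-263-treated mouse (478) was thus above the highest DMSO-treated mouse (480), with means of 6.26 ± 2.71 (SD, n = 4) and 23.3 ± 10.9 CPM (SD, n = 3). On the log2 scale the difference was 1.90 (SE 0.38, edgeR adjusted p = 0.0146), and the exact permutation test gave p = 0.0286. *Ripk3* was the single member called in all 7 fits that left out 1 mouse, with log2 fold changes of 1.45 to 2.24 and adjusted p of 0.00953 to 0.0485. Without mouse 476, which was 2.00 times the next mouse, the difference was 2.74-fold (edgeR adjusted p = 0.0337), within a range of 5.58e-05 to 0.0485 over the 14 alternatives.

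*Mlkl* (chromosome 8, 111311797 to 111338177, reverse strand) encodes the pseudokinase that breaches the plasma membrane in necroptosis. It was at 10.1, 3.96, 7.44 and 7.68 CPM after DMSO and at 28.4, 11.2 and 13.5 CPM after ABT-263. The groups were separated by about 1 CPM, between DMSO-treated mouse 480 and ABT-263-treated mouse 477, and mouse 476 was 2.09 times the next ABT-263-treated mouse. The log2 fold change of 1.28 (SE 0.39) was just past the threshold (edgeR adjusted p = 0.0490), and the exact permutation test gave p = 0.0571. Leaving out mouse 481, 482, 483, 476 or 478 ended the call, with adjusted p of 0.0860, 0.108, 0.0997, 0.161 and 0.0800, and so did 5 other alternatives with adjusted p of 0.0510 to 0.0645, within a range of 0.0112 to 0.161 over all 14. Without mouse 476 the log2 fold change was 0.77. That is a difference of 1.70-fold in place of 2.42-fold.

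**Figure D2:**
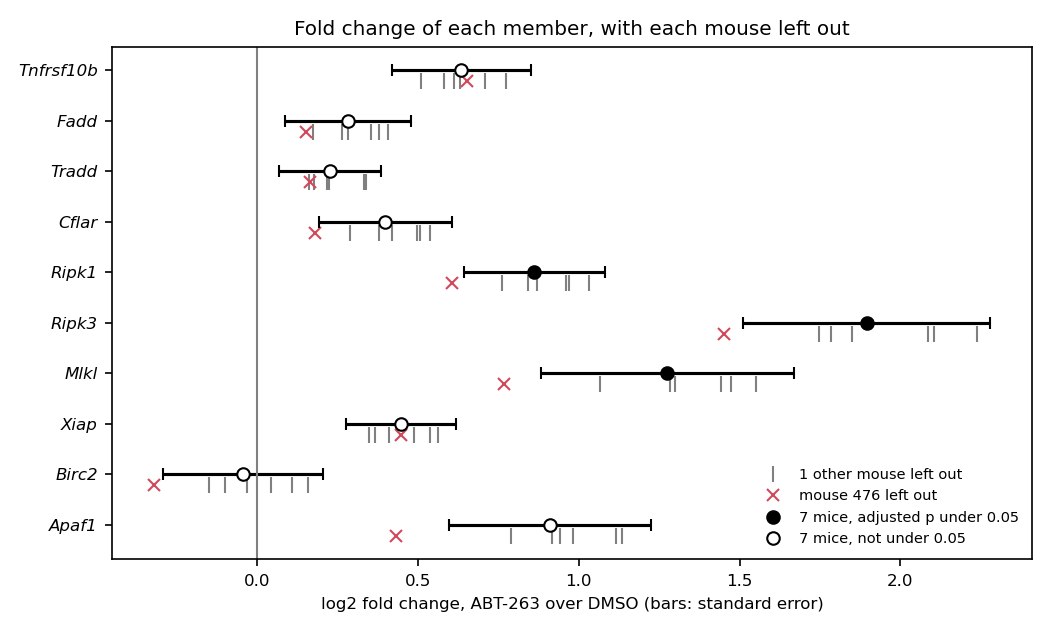
Points give the log2 fold change of each gene (ABT-263 over DMSO, from 7 mice) with its standard error, filled where the edgeR adjusted p was under 0.05. Grey ticks give the value with 1 other mouse left out and red crosses the value without mouse 476. *Ripk3* stays at or above 1.45 in every such fit, *Mlkl* and *Apaf1* fall to 0.77 and 0.43 without mouse 476, and *Birc2* lies on either side of 0.

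The sequences just before the transcription start of the 3 called genes are shown because these genes were higher together. They are the 250 bases before the start in RefSeq (GRCm38.p6), written 5′ to 3′ on the strand of the gene, with the GC box letters GGGCGG or their reverse complement in capitals. The *Ripk3* sequence lies at chr14:55788858-55789107 on the reverse strand, that of *Mlkl* at chr8:111338206-111338455 on the reverse strand, and the upstream of 2 windows of *Ripk1* at chr13:34002113-34002362 on the forward strand.
Ripk3: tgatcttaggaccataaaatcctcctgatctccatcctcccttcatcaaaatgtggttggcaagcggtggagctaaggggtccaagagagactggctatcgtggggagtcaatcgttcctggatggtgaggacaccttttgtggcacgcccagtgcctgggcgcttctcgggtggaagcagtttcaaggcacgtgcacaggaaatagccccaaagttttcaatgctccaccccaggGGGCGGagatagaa
Mlkl: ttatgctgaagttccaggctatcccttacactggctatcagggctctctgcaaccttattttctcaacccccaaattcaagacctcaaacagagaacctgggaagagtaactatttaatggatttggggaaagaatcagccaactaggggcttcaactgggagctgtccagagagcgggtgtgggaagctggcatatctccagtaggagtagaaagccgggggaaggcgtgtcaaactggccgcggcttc
Ripk1: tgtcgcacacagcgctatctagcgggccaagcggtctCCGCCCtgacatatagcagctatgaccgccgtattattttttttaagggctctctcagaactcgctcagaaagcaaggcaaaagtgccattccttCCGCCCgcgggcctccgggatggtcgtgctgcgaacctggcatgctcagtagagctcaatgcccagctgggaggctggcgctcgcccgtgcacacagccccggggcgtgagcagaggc
Both strands of each window were searched for 5 sets of letters: GGG and TTTCC with any 2 bases between them (NF-κB-like), GAAA and GAAA with any 2 bases between them (interferon response-like), TGANTCA (AP-1-like), CCAAT and GGGCGG. None of the first 4 was found in any of the 12 windows of the 8 members that have a window, and across all 32851 windows of the table they occur in 1.41%, 2.98%, 6.75% and 33.8%. GGGCGG was found in 8 of the 12 windows, in 6 of the 8 members, against 32.7% of all windows. In *Ripk3* there was 1 match, which begins 14 bases before the start, in this *Ripk1* window there were 2, both on the opposite strand, and in *Mlkl* there was none. The *Mlkl* start in RefSeq (111338205) lies beyond the gene end given above (111338177). A stretch of bases just after that start was not found in the annotated *Mlkl* transcripts, so the place of this window is less certain. A match is a description of letters and not a measured site, and a window without a match says nothing of the factor. *Tnfrsf10b* and *Tradd* were not matched to a window.

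Several marker lists of other cell types also held genes called higher after ABT-263, beside 12.4% of all genes tested. Of 9 macrophage and monocyte markers, 7 were called higher after ABT-263, with a summed level of 385 to 1117 CPM in DMSO-treated mice and 1343 to 4395 CPM in ABT-263-treated mice, and all 9 were highest in mouse 476. Of 7 neutrophil markers 6 were tested and 4 called higher, with a sum of 104 to 1825 CPM after DMSO and 5126 to 8506 CPM after ABT-263, the lowest in mouse 481 and the highest in mouse 476. All 5 endothelial markers were called higher (144 to 333 against 478 to 612 CPM), as were 3 of 6 fibroblast markers (3798 to 5304 against 6004 to 8569 CPM). Among the ABT-263-treated mice the fibroblast sum was lowest in mouse 476 (6004 CPM) and highest in mouse 478 (8569 CPM). Most of this sum came from *Col1a1* and *Col1a2*. Of the 6 fibroblast markers, 2 (*Pdgfra* and *Dcn*) were highest in mouse 476, and the others were higher in mouse 478 than in 476 or 477. None of these lists had a gene called lower, by edgeR, at an unadjusted p under 0.05 or by the Wald test (0 in each). The Wald test gave no adjusted p for some neutrophil markers, so it could not call these. T cell markers were low in both groups, with sums of 14.5 to 25.9 and 13.3 to 50.0 CPM, and 0 of 7 were called by edgeR, 0 at an unadjusted p under 0.05 and 1 by the Wald test. Without mouse 476, 3 macrophage, 2 neutrophil, 3 endothelial and 3 fibroblast markers were called higher, beside 6.01% of all genes. No list had a marker without any count in all mice. In bulk skin a change in the number of cells of a type and a change in the RNA per cell cannot be told apart, and the part of these cell types in the levels of *Ripk1*, *Ripk3* and *Mlkl* was not tested.

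Among the other lists, 1 of 6 basal keratinocyte markers was called higher and 1 lower, and the sums overlapped (18066 to 31092 CPM after DMSO and 13727 to 35760 CPM after ABT-263). Of 6 skeletal muscle markers 1 was called lower, as was 1 of 3 Schwann cell markers. Hair follicle markers summed to 2842 CPM in DMSO-treated mouse 481 and to 557 CPM in ABT-263-treated mouse 478, and to at most 32.4 CPM in the other mice. B cell and plasma cell markers summed to 141 CPM in mouse 476 and to at most 10.3 CPM in every other mouse. Suprabasal (11989 to 41128 against 6994 to 26987 CPM) and wound keratinocyte (2569 to 19970 against 9630 to 22853 CPM), mast cell (52.3 to 155 against 75.7 to 209 CPM) and adipocyte markers (51.3 to 290 against 75.8 to 511 CPM) overlapped between the groups. The hair follicle, B cell and plasma cell, suprabasal and wound keratinocyte lists had 0 markers called by edgeR, at an unadjusted p under 0.05 or by the Wald test. The Wald test gave no adjusted p for most hair follicle markers and for some wound keratinocyte and B cell and plasma cell markers, so it could not call these. Of 5 B cell and plasma cell markers, edgeR tested 3. The mast cell and adipocyte lists had 0 called by edgeR, with 1 and 2 higher at an unadjusted p under 0.05 and 1 each by the Wald test.

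**Figure D3:**
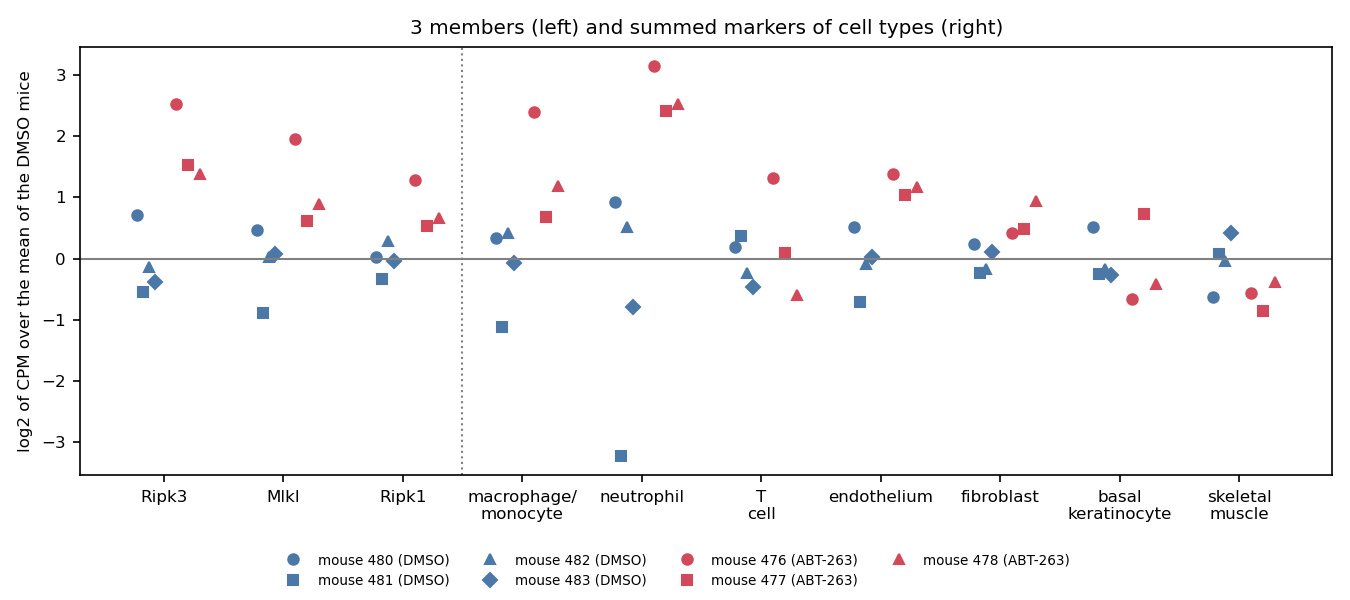
The level of 3 members and the summed level of 7 marker lists in each mouse, as log2 of CPM over the mean of the DMSO-treated mice (blue DMSO, red ABT-263, 1 symbol per mouse). Mouse 476 is the highest mouse for *Ripk3*, *Mlkl*, *Ripk1* and for the macrophage, neutrophil, T cell and endothelial sums, and mouse 481 lies at -3.22 for neutrophil markers. The neutrophil sum is mostly *S100a8* and *S100a9*, and the fibroblast sum mostly *Col1a1* and *Col1a2*.

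*Xiap* (chromosome X, 42059679 to 42109656, forward strand) encodes the IAP protein that binds and inhibits caspases directly. It was at 15.5, 23.2, 21.2 and 18.1 CPM after DMSO and at 26.9, 23.2 and 29.6 CPM after ABT-263. ABT-263-treated mouse 477 and DMSO-treated mouse 481 were equal to 3 digits, so the separation of the groups in this gene is smaller than the rounding. A log2 fold change of 0.45 (SE 0.17) did not pass (edgeR adjusted p = 0.0910). Once trends with gene length and base composition were removed, it was 0.58 and passed (adjusted p = 0.0169, with 12.5% of all genes called higher), within a range of 0.0169 to 0.247 over the 14 alternatives. The longest annotated *Xiap* transcript has a GC content of 36.8%, the lowest of the 10 members.

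*Birc2* (chromosome 9, 7818227 to 7837064, reverse strand) encodes cIAP1, a ubiquitin ligase of the TNF receptor 1 complex. Its expression was 19.2, 32.6, 25.6 and 22.0 CPM after DMSO and 32.8, 18.2 and 21.4 CPM after ABT-263. The groups were interleaved, with mouse 476 at the top and mouse 477 at the bottom of all 7. Their log2 fold change was -0.04 (SE 0.25, edgeR adjusted p = 0.914), and its sign changed with the mice included (-0.32 without mouse 476 and 0.16 without mouse 477).

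*Apaf1* (chromosome 10, 90989311 to 91082770, reverse strand) encodes the scaffold that cytochrome c assembles into the apoptosome, which activates caspase-9. It was at 8.14, 5.69, 8.78 and 7.76 CPM after DMSO and at 22.5, 10.8 and 9.60 CPM after ABT-263. The groups did not overlap, but mice 477 and 478 lay close above the DMSO range while mouse 476 was 2.09 times the next mouse. Its log2 fold change of 0.91 (SE 0.31) did not pass (edgeR adjusted p = 0.0673), and without mouse 476 it was 0.43. The DESeq2 Wald test called it (adjusted p = 0.0365), within a range of 0.0365 to 0.242 over the 14 alternatives.

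Levels of different genes can be compared only per length. In DMSO-treated skin the mean level in CPM per kilobase of exon was highest for *Tradd* (16.9), followed by *Birc2* (5.43), *Fadd* (3.64), *Mlkl* (3.17), *Ripk3* (2.73), *Cflar* (2.68), *Xiap* (2.06), *Ripk1* (2.03), *Apaf1* (0.841) and *Tnfrsf10b* (0.701). The ranges over the 4 mice of neighbours in this order overlapped except between *Tradd* and *Birc2* and between *Ripk1* and *Apaf1*. In ABT-263-treated skin the order was *Tradd* (19.7), *Ripk3* (10.2), *Mlkl* (7.69), *Birc2* (5.27), *Fadd* (4.42), *Ripk1* (3.70), *Cflar* (3.54), *Xiap* (2.81), *Apaf1* (1.58) and *Tnfrsf10b* (1.09). There the ranges over the 3 mice overlapped between all neighbours except *Tradd* and *Ripk3*, so the places of *Ripk3* and *Mlkl* above *Birc2* are places of means, and for *Mlkl* (4.87 to 12.3) the range overlapped that of *Birc2* (3.97 to 7.16). The spread between mice also differed among the members: the highest DMSO-treated mouse was 2.38 times the lowest for *Ripk3* and 2.55 times for *Mlkl*, and no more than 1.69 times for the other 8.

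The other genes of the same signalling route give the setting of the 10 members. Of 65 such genes in 8 lists by role, 62 were tested, 16 were called higher (25.8%, background 12.4%) and 3 lower (4.84%, background 11.7%), and their median log2 fold change was 0.24. Mouse 476 was the highest of the 7 mice in 35 of the 62. Without it 9 were called higher, beside 6.01% of all genes, and 2 lower, and all 11 were among the 19 called with it. The number called of either sign was 6 without mouse 482, 7 without 483, 8 without 481, 10 without 478, 17 without 480 and 17 without 477, and it was 12 with no filter on low counts. Over the fits with 1 mouse left out, the share of all genes called higher was 4.80% to 12.3%. Of the 19, 6 were called in all 7 fits that left out 1 mouse (*Tnfsf10*, *Casp8*, *Birc3*, *Tbk1*, *Diablo* and *Casp6*), *Tnf* in 6, *Tnfaip3* in 5, *Tlr4* in 4, *Tnip1*, *Chuk* and *Naip2* in 2, and *Tnfrsf1a*, *Fas*, *Spata2*, *Tank*, *Adar*, *Ppm1b* and *Arel1* in 1.

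Death ligands included the largest log2 fold change of these lists. *Tnf* was at 0.885 to 1.56 CPM after DMSO and at 27.0, 9.40 and 2.36 CPM in mice 476, 477 and 478 (log2 fold change 3.30, SE 0.72, edgeR adjusted p = 0.0191). *Tnfsf10*, which encodes TRAIL, the ligand of Tnfrsf10b, was at 1.22 to 3.33 CPM after DMSO and at 14.3, 4.44 and 11.4 CPM after ABT-263 (log2 fold change 2.36, SE 0.47, edgeR adjusted p = 0.0139), and stayed called in all 7 fits with 1 mouse left out. Thus 2 of 5 tested ligands were higher, in groups that did not overlap. *Tnfsf12* (TWEAK) had the highest mean of those not called (log2 fold change 0.15, edgeR adjusted p = 0.700), though 48.3% of its exon bases are shared with another gene on the same strand. *Fasl* was not tested, with 0 to 41 counts per mouse.

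Of 9 other receptors, 2 were called higher and 0 lower. *Tnfrsf1a*, TNF receptor 1, was at 108 to 190 CPM after DMSO and 214 to 295 CPM after ABT-263 (log2 fold change 0.78, edgeR adjusted p = 0.0331). *Fas* was at 3.64 to 5.35 CPM after DMSO and at 27.0, 7.01 and 10.5 CPM after ABT-263 (log2 fold change 1.61, edgeR adjusted p = 0.0322). Neither remained past the threshold without mouse 476 (edgeR adjusted p = 0.0992 for *Tnfrsf1a* and 0.0719 for *Fas*), and each was called in 1 of the 7 fits. *Tnfrsf21*, the receptor not called with the highest mean CPM, had a log2 fold change of 0.22 (edgeR adjusted p = 0.328). In *Tnfrsf25* and *Ngfr* every ABT-263-treated mouse lay below every DMSO-treated mouse, as in 18.4% of all genes tested. Their log2 fold changes of -1.02 and -1.06 did not pass (edgeR adjusted p = 0.0706 and 0.124). The Wald test called *Tnfrsf25* lower (adjusted p = 0.0337) but not *Ngfr* (0.0655).

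Among adaptors and the initiator caspase, *Casp8* was called and *Traf2*, *Cradd* and *Pidd1* were not. *Casp8* encodes caspase-8, which Fadd recruits and which cleaves Ripk1 and Ripk3. It was at 15.6, 7.33, 8.16 and 9.12 CPM after DMSO and at 37.0, 24.2 and 30.2 CPM after ABT-263. These groups were well apart, and the log2 fold change of 1.60 (SE 0.28, edgeR adjusted p = 0.00987) held its call in all 7 fits with 1 mouse left out (1.44 without mouse 476). *Traf2*, with the highest mean CPM of the other genes, had a log2 fold change of -0.07 (edgeR adjusted p = 0.769).

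Of 9 genes listed for ubiquitin control of the TNF receptor complex, 4 were called higher. *Birc3*, which encodes cIAP2, the close paralog of cIAP1, was at 10.9 to 12.4 CPM after DMSO and at 48.4, 21.4 and 25.5 CPM after ABT-263 (log2 fold change 1.46, SE 0.27, edgeR adjusted p = 0.0109), and stayed called in all 7 fits. *Tnfaip3*, which encodes A20, an inhibitor of NF-κB signalling, was at 3.36 to 5.48 CPM after DMSO and at 49.4, 9.91 and 12.9 CPM after ABT-263 (log2 fold change 2.42, edgeR adjusted p = 0.0211). Its partner *Tnip1* was also higher (log2 fold change 1.19, edgeR adjusted p = 0.0326), as was *Spata2*, which links the deubiquitinase Cyld to the complex, by a small and even amount (11.8 to 13.1 against 16.6 to 17.3 CPM, edgeR adjusted p = 0.0331). *Rbck1*, a subunit of the linear ubiquitin ligase, had the highest mean CPM of the genes not called (log2 fold change -0.28, edgeR adjusted p = 0.159).

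In the TAK1 and IKK kinase complexes, which phosphorylate Ripk1 and NF-κB regulators, 2 of 11 genes were higher and 1 was lower. *Tbk1*, a kinase that restrains Ripk1, was at 9.82 to 13.4 CPM after DMSO and at 28.5, 17.8 and 24.0 CPM after ABT-263 (log2 fold change 1.09, edgeR adjusted p = 0.0105, called in all 7 fits). *Tank*, a scaffold that binds Tbk1, had a log2 fold change of 0.86 (edgeR adjusted p = 0.0333). *Chuk*, which encodes IKKα, fell from 25.7 to 33.8 CPM after DMSO to 24.9, 18.7 and 16.4 CPM after ABT-263 (log2 fold change -0.61, edgeR adjusted p = 0.0414). *Mapkapk2* had the highest mean CPM of the genes not called (log2 fold change 0.27, edgeR adjusted p = 0.276).

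Sensors and regulators of necroptosis other than the members were split. *Tlr4*, the receptor for bacterial lipopolysaccharide, was at 1.64 to 3.54 CPM after DMSO and at 21.0, 5.70 and 8.29 CPM after ABT-263 (log2 fold change 2.02, edgeR adjusted p = 0.0216), and *Adar*, which edits double-stranded RNA, had a log2 fold change of 0.70 (edgeR adjusted p = 0.0469). *Ppm1b*, a phosphatase that acts on Ripk3, was lower (log2 fold change -0.63, edgeR adjusted p = 0.0430), although its groups overlapped. *Zbp1*, the nucleic acid sensor that binds Ripk3, was at 16.3, 4.55, 8.11 and 8.50 CPM after DMSO and at 97.0, 14.4 and 23.8 CPM after ABT-263. That gave a log2 fold change of 2.26 (SE 0.69) and an edgeR adjusted p of 0.0502, with DMSO-treated mouse 480 above ABT-263-treated mouse 477. The Wald test called *Zbp1* higher (adjusted p = 0.00192). *Pgam5* had a log2 fold change of -0.12 (edgeR adjusted p = 0.501).

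In the IAP family and its antagonists 3 of 11 tested genes were higher and 1 lower. *Diablo* encodes Smac, the mitochondrial protein that displaces IAP proteins from caspases, and it was at 23.2, 30.9, 31.3 and 26.2 CPM after DMSO and at 16.0, 13.8 and 11.5 CPM after ABT-263. It was the called gene of these lists with the smallest adjusted p (0.00910 by edgeR), with a log2 fold change of -1.02 (SE 0.17), and it was called in all 7 fits (-1.14 without mouse 476). In the annotation 19.3% of its exon bases are shared with other genes on the same strand. *Birc3* (above), *Arel1*, a ubiquitin ligase for IAP antagonists (log2 fold change 0.56, edgeR adjusted p = 0.0453), and *Naip2*, an inflammasome sensor (1.90, edgeR adjusted p = 0.0478), were higher. *Naip2* has near-identical paralogs in its cluster, so its value is uncertain, and neither it nor *Arel1* passed without mouse 476 (edgeR adjusted p = 0.181 and 0.142). *Birc6* and *Birc5* (survivin) had negative log2 fold changes that did not pass (-0.48 and -0.84, edgeR adjusted p = 0.0569 and 0.0796). The Wald test called *Birc5* lower (adjusted p = 0.0456) but not *Birc6* (0.0625). *Birc7* and *Naip1* were not tested, with at most 4 and 3 counts per mouse.

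Of 7 other genes of the apoptosome and downstream of it, 1 was called higher. *Casp6*, which encodes a caspase that acts late in apoptosis, was at 8.42 to 10.6 CPM after DMSO and at 22.3, 16.4 and 16.3 CPM after ABT-263. Each ABT-263-treated mouse was above the DMSO-treated mice, and the log2 fold change of 0.91 (SE 0.17, edgeR adjusted p = 0.0120) held its call in all 7 fits with 1 mouse left out. The other 6 genes of the list were not called, among them *Dffa*, the inhibitor of the caspase-activated DNase (log2 fold change -0.02, edgeR adjusted p = 0.943).

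**Figure D4:**
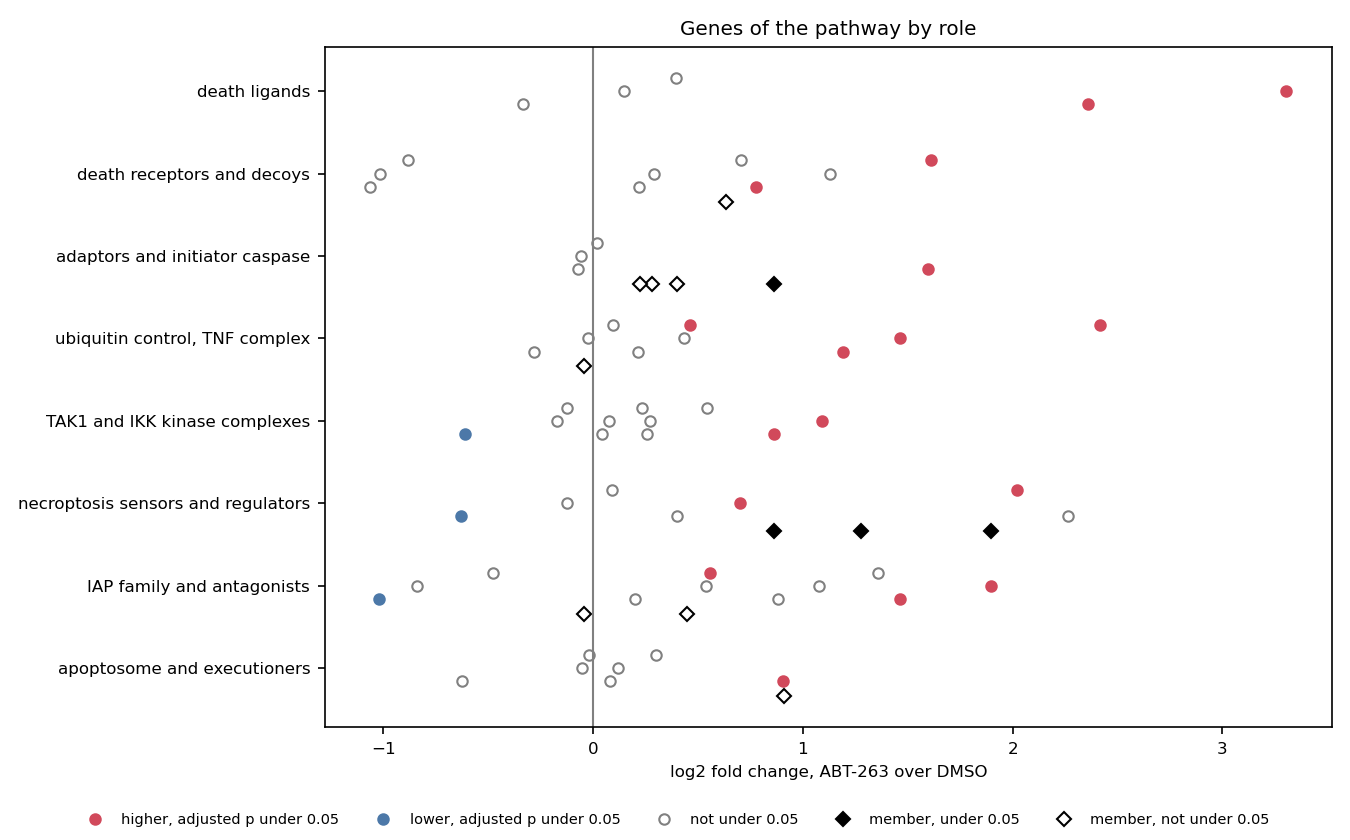
Each circle is 1 tested gene of the pathway other than the members, placed by its log2 fold change (ABT-263 over DMSO), red or blue where the edgeR adjusted p was under 0.05, and black diamonds are the members, filled where called. The ligands *Tnf* and *Tnfsf10* lie farthest right among the called genes of their row at 3.30 and 2.36, and the 3 blue points are *Chuk*, *Ppm1b* and *Diablo*. *Birc3* and some members belong to 2 rows and are drawn in both.

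Levels of 2 genes can also be set against each other within each library. The scaling between libraries enters such a ratio only through the 0.5 CPM added to both genes, and 4 ratios were compared, with exact two-sided permutation tests adjusted over the 4. The log2 ratio of *Cflar* to *Casp8* was 1.38, 1.77, 1.94 and 1.91 after DMSO and 0.64, 0.73 and 0.26 after ABT-263. This ratio was thus lower in 3 of 3 ABT-263-treated mice than in any DMSO-treated mouse, with a difference of -1.21 (exact p = 0.0286, adjusted 0.0571). The difference was -1.25 with 0.1 CPM added and -1.09 with 2 CPM added. Both genes had positive log2 fold changes, 1.60 for *Casp8* and 0.40 for *Cflar*, and caspase-8 activity was not measured. The ratio of *Birc3* to *Birc2* was -0.72, -1.53, -1.01 and -0.94 after DMSO and 0.56, 0.23 and 0.25 after ABT-263. It was below 0 in every DMSO-treated mouse and above 0 in every ABT-263-treated mouse, a difference of 1.40 (exact p = 0.0286, adjusted 0.0571). The ratio of *Mlkl* to *Ripk3* differed by -0.63 (exact p = 0.0571, adjusted 0.0762), lower in 3 of 3 ABT-263-treated mice than in any DMSO-treated mouse. The ratio of *Apaf1* to *Xiap* differed by 0.34 (exact p = 0.429, adjusted 0.429) and overlapped between groups. None of the 4 passed 0.05 after adjustment. The exact p of 0.0286 for *Cflar* to *Casp8* and for *Birc3* to *Birc2* is the smallest that 4 mice against 3 allow, so neither could have been smaller.

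**Figure D5:**
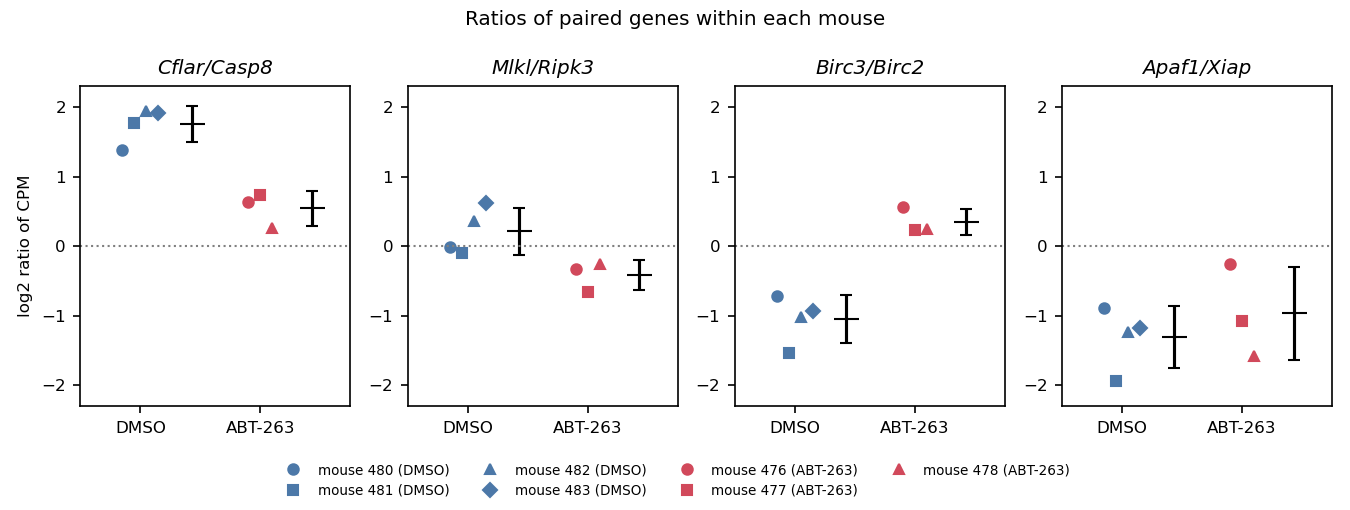
Log2 ratio of CPM of 2 genes within each mouse (symbols as labelled), with group mean and SD in black, where 0 marks equal CPM without regard to gene length. The ratio of *Cflar* to *Casp8* is between 1.38 and 1.94 after DMSO and between 0.26 and 0.73 after ABT-263, and that of *Birc3* to *Birc2* changes sign.

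Over the 7 mice, the genes whose profile was most like that of *Ripk3* were *Tgfa*, *Il23a*, *Hbegf*, *Slc23a4* and *Ctsh*, with root mean square differences in log2 CPM of 0.17, 0.20, 0.20, 0.21 and 0.22 after centring, against a median of 1.05 over 15589 genes compared. *Tgfa* and *Hbegf* encode ligands of the epidermal growth factor receptor, *Il23a* the specific subunit of interleukin-23, and *Ctsh* a lysosomal cathepsin. *Tgfa* was at 14.0 CPM after DMSO and 41.9 CPM after ABT-263 on average, *Hbegf* at 21.5 and 72.2 CPM, and *Ctsh* at 88.1 and 260 CPM. *Il23a* was at 0.432 and 2.61 CPM, and *Slc23a4* at 0.509 and 3.17 CPM. Both were below 1 CPM after DMSO and entered the comparison, which asked for a mean of 1 CPM over all mice, through their ABT-263 values. Their fitted log2 fold changes of 2.56 and 2.62 were larger than the 1.90 of *Ripk3*, and the added 0.5 CPM shrinks such low values, so their closeness to *Ripk3* depends in part on it. Of the other members, *Mlkl* came closest to *Ripk3* (0.40, rank 170), followed by *Apaf1* (0.58, rank 882) and *Ripk1* (0.59, rank 938), and *Birc2* was farthest (1.07, rank 8318). The 7 mice share the difference between treatments and the high values of mouse 476, so likeness over them is a description.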

How the data were processed

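Dorsal skin RNA of 7 mice was sequenced in bulk. The authors aligned reads to mm10 with STAR 2.7.9a and used featureCounts (Subread 1.6.2) with Ensembl annotation build 109 to count proper pairs with a unique alignment on the strand of each gene, without mitochondrial genes. These counts were deposited raw. A second deposited table holds log2-like values after the authors' variance-stabilizing transformation in DESeq2 1.23.10, and these were used here only as an alternative. The labels and the methods of the study name different RNA extraction kits.

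Total counts lay between 20344364 and 43562330 per library. The groups are those of the sample titles, and each mouse is 1 replicate because the mice are separate animals. No pair of libraries within a group looked like 1 library deposited under 2 names (chi-square per degree of freedom of 39.1 to 288).

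Counts were tested with edgeR 4.0.16 in R 4.3.3 (TMM, filterByExpr, robust quasi-likelihood test, treatment as the only term, two-sided, Benjamini-Hochberg adjustment over the 17959 genes kept, threshold 0.05). Each standard error is the size of the log2 fold change divided by the square root of its quasi-likelihood F value. CPM values use TMM library sizes. Ratios and profiles used log2(CPM + 0.5), and permutation tests used all 35 arrangements. Positions, exon lengths and gene overlaps came from GENCODE M21 (GRCm38), which holds 55190 of the 55450 identifiers and is not the authors' annotation build. Promoter windows came from RefSeq (GRCm38.p6).

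The alternatives were DESeq2's size factors, the DESeq2 1.42.0 Wald test, limma 3.58.1 on the variance-stabilized values, testing every gene with a count, at least 10 counts in every sample, an offset for length and GC trends (mgcv 1.9.3), counts thinned to the smallest library, prior counts of 0.1 and 2 CPM for the ratios, and leaving out each mouse. The members and all gene lists were chosen with earlier results of these data known, so no test over a list is given. Some genes of the pathway lists are not reported here and were left out of the counts. Named genes are all members, every other pathway gene past the threshold, the most abundant gene of each list that did not pass (at most 2), and the 5 genes of at least 1 CPM with the profile most like that of the called member with the smallest p. *Tnfrsf25* and *Ngfr* are named as receptors that were lower in groups that did not overlap. Some marker genes are named where they make up most of a summed level or differ from it.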

Additional observations from a re-analysis of the deposited data

How the results depend on the processing

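Of the 10 members, 3 were called with all mice and 5 with the DESeq2 Wald test, beside 12.4% and 14.0% of all genes called higher. With 1 mouse left out 1 to 3 were called (1 without mouse 481, 483, 476 or 478), beside 4.80% to 12.3% of all genes called higher. With DESeq2's size factors, limma, every gene with a count or thinned counts, 2 were called (*Ripk1* and *Ripk3*). No share of all genes is given for these settings, so the 2 have no background beside them. With length and GC trends removed 3 were called (12.5% of all genes called higher), with *Xiap* in place of *Mlkl*. Of the other pathway genes 19 were called with all mice, 6 to 17 with 1 mouse left out, 12 with every gene with a count tested, and 16 to 25 under the 6 other alternatives. The 19 were 30.6% of those tested, against 24.2% of all genes called in either direction. For the alternatives no such share of all genes is given. The log2 fold change of *Birc2* was 0.11 without mouse 481, 0.16 without 477 and 0.042 without 478, within -0.32 to 0.16 over the fits with 1 mouse left out. The log2 difference in the ratio of *Apaf1* to *Xiap* was -0.021 without mouse 476, within -0.021 to 0.64. Leaving out a mouse cannot bring the exact test of a ratio below 0.0667 (4 against 2) or 0.1 (3 against 3). Over all 140 settings of the members' fold changes, 120 kept direction and side of the threshold. In 14 a called gene (*Ripk1* or *Mlkl*) lost its call, in 3 a gene gained it (*Tnfrsf10b* and *Apaf1* with the Wald test, *Xiap* with length and GC trends removed), and 3 reversed (*Birc2*). Of 75 settings of the counts and ratios, 63 kept their direction, call or a count within 1.5 times. The causes were not tested. No paired analysis was possible because the groups share no replicate numbers. At 4 and 3 mice the call for *Apaf1*, 1.88-fold higher, depended on the test, as it missed the threshold with edgeR and passed it with the Wald test.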
